A study of Mus musculus with 6 samples.

Results

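Secreted Wnt inhibitors are proteins that cells release to limit Wnt signalling around them, and 10 of their genes were followed here in mouse tooth germs: Sfrp1, Sfrp2, Sfrp4, Sfrp5, Frzb, Wif1, Dkk1, Dkk2, Dkk3 and Notum. They were chosen by gene symbol, with earlier results of these data known. All 10 were found among the 23420 symbols of the count tables and passed the filter on low counts, which left 15284 genes tested. RNA came from tooth germs of C57BL/6 embryos labelled E15.5, in 3 libraries labelled Smad7-/- and 3 labelled Wildtype. SMAD7 is an intracellular brake on the TGF-beta and BMP pathways, and the 2 genotypes were compared to see what its loss does to gene expression in the developing tooth. The labels give neither the kind of Smad7 allele, nor the tooth type, nor whether embryos were pooled or each library is a separate animal. The p-values therefore describe library-to-library spread, which may be partly technical.

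Wnt ligands are lipid-carrying secreted proteins that bind Frizzled receptors and, for signalling through beta-catenin, the co-receptors LRP5 and LRP6. The inhibitors act at different steps of this. SFRP proteins, to which FRZB belongs, carry a cysteine-rich domain like that of Frizzled and bind Wnt ligands, and WIF1 binds ligands through a domain of its own. DKK1 and DKK2 bind LRP5 and LRP6, while DKK3 is a divergent relative, and NOTUM is an enzyme that removes the lipid from the ligand. Tooth development depends on this balance: forced expression of Dkk1 in the oral epithelium of mice arrests teeth early, and overactive beta-catenin there gives extra teeth.

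Promoter windows of 6 of the 10 genes, 250 bases before to 50 after the transcription start, were in the RefSeq table for GRCm38.p6. Those of Sfrp2 and Sfrp5 are shown because these close relatives had the SMAD box and because their RefSeq and GENCODE M21 starts are the same base. The Dkk1 stretch is shown because it held the only matches to a TCF/LEF word among the 6. Capitals mark the SMAD box CAGAC (read here on the other strand as GTCTG) in the Sfrp genes, and the TCF/LEF words CTTTGAA (first) and CTTTGTT (last) in Dkk1.
Sfrp2, chr3:83766071-83766370, plus strand: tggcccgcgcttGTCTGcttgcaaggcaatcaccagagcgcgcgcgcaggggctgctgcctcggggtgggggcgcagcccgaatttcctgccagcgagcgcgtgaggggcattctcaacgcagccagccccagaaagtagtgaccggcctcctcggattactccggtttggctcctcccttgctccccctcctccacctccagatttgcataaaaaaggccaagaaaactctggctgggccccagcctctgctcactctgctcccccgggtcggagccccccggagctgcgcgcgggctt
Sfrp5, chr19:42202203-42202502, minus strand: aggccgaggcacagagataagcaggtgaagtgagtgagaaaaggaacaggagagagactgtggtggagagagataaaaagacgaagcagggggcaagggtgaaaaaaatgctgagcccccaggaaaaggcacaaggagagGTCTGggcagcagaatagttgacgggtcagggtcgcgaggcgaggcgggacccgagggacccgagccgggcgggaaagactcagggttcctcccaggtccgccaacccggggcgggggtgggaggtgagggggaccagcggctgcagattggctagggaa
Dkk1, chr19:30549586-30549615, minus strand: agCTTTGAAatcccatcccggCTTTGTTgt

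TCF/LEF factors carry the beta-catenin signal to DNA, and SMAD factors carry the TGF-beta and BMP signal. Of all 32851 promoter windows, searched on both strands, the TCF/LEF word CTTTGAA was in 5.14%, CTTTGAT was in 3.73%, CTTTGTA was in 3.63% and CTTTGTT was in 5.85%, and 16.9% held at least 1 of these 4. The Dkk1 words start at positions -117 and -98 from the RefSeq start, and GENCODE places the Dkk1 start 169 bases further upstream. The SMAD box was in 49.6% of all windows, so a match says little, and it was found at position -238 in Sfrp2, at -110 in Sfrp5 and at 44 in Dkk1. The palindromic SMAD element GTCTAGAC, in 0.213% of windows, matched none of the 6 genes. None of these words contains another, and a match is a string of letters, not a shown binding site.

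The libraries held 37591888 to 56575476 counts. Smad7 had 80, 62 and 41 counts in the Smad7-/- libraries and 1097, 934 and 859 in the wild-type libraries, so each matched its label. It fell to 1.42 ± 0.709 CPM (counts scaled to a common library size; mean ± SD, n = 3) in Smad7-/-, against 19.4 ± 1.77 CPM in wild type (edgeR log2 -3.80 ± 0.33 SE, adjusted p = 0.00749). Without Smad7-/- library 2 that adjusted p was 0.0885. Libraries also separated across genotype: Smad7-/- libraries 1 and 2 with wild-type library 1 (the first set) had scores below 0 on principal component 1 (33.5% of the variance), and Smad7-/- library 3 with wild-type libraries 2 and 3 (the second set) had scores above 0. Smad7-/- library 3 and wild-type library 1 carried Xist, the RNA of the inactive X chromosome in females, and the other 4 carried Y-linked Ddx3y. The libraries with Xist had 0 CPM of Ddx3y, so the libraries of each genotype did not all come from the same animal. Dental epithelium and mesenchyme markers were present in every library, as the tissue label says. Transcripts of differentiated ameloblasts and odontoblasts were abundant, with the enamel gene Amelx at 5999 to 8479 CPM in Smad7-/- and 6347 to 13709 CPM in wild type, and the dentin gene Dspp at 1565 to 2457 CPM in Smad7-/- and 1618 to 3355 CPM in wild type. As background, mouse teeth express these genes strongly only at later stages, so the levels sit badly with the stage label, which is given here as the submitters wrote it.

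Among the inhibitors, Frzb, Sfrp1 and Sfrp2 averaged 1.67-, 1.55- and 1.55-fold the wild-type level in the Smad7-/- tooth germs, and Notum averaged 1.26-fold. Wif1, Dkk1, Dkk2, Dkk3 and Sfrp5 differed by 1.18-fold or less, and Sfrp4 varied too much between libraries to place. None of the 10 passed the edgeR test (quasi-likelihood F-test, Benjamini-Hochberg adjusted p under 0.05 over all tested genes), which 4 of the 15284 genes did (0.0262%). At an unadjusted p under 0.05 there were 4 of the 10, all higher, where 3.26% of all tested genes were higher and 5.14% passed in either direction. Because the 10 were chosen with earlier results of these data known, this contrast is a description and not a test. Without wild-type library 2 there were 2, Frzb and Sfrp1, and leaving out each of the other libraries in turn gave 3 to 5. DESeq2, run as an alternative, called Frzb and Sfrp1 higher, where it called 0.262% of the genes it tested higher and 0.351% in either direction (0.268% and 0.366% on the genes that passed the edgeR filter).

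**Figure D1:**
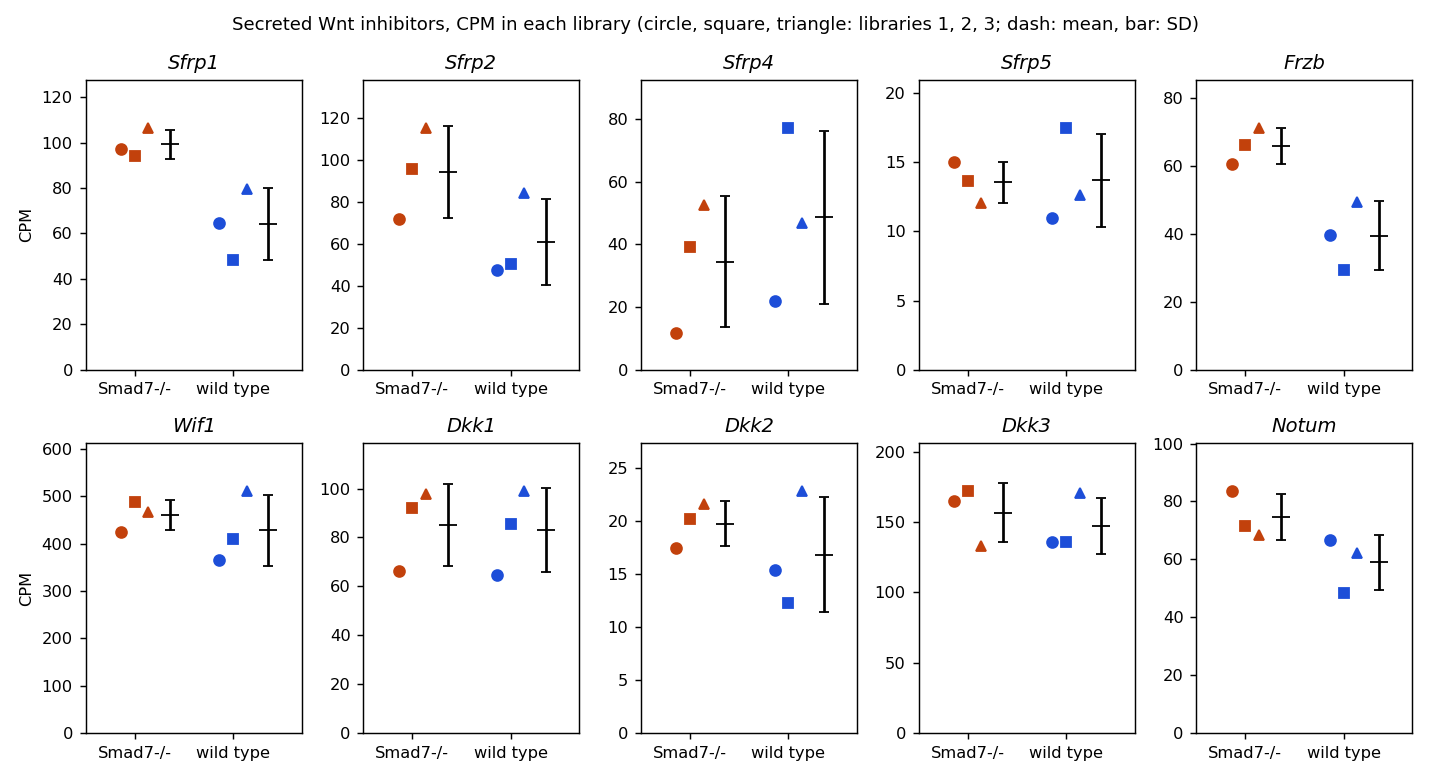
CPM of each secreted Wnt inhibitor in the 3 Smad7-/- and the 3 wild-type libraries, with the mean as a dash and the SD as a bar; each panel has its own axis from 0. In the panels of Sfrp1, Frzb and Notum all Smad7-/- libraries lie above all wild-type libraries, while the other 7 overlap.

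Frzb, also known as Sfrp3 and named after its expression in developing bone, lies on chromosome 2 at 80411970 to 80447625 (mm10, GENCODE M21, minus strand). It had 60.7, 66.1 and 71.2 CPM in Smad7-/- libraries 1 to 3, against 39.8, 29.2 and 49.4 CPM in wild-type libraries 1 to 3. The lowest Smad7-/- library was above the highest wild-type library. The difference was 1.67-fold, with a 95% interval from 1.28 to 2.18 (log2 0.74 ± 0.17 SE, unadjusted p = 0.00168, edgeR adjusted p = 0.597). DESeq2 on all symbols gave 0.74 ± 0.17 and an adjusted p of 0.0108, and over 17 alternatives the adjusted p ran from 0.0108 to 1.00.

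Sfrp1, a broadly expressed Wnt-binding SFRP, lies on chromosome 8 at 23411502 to 23449632 (plus strand). It had 97.3, 94.0 and 106 CPM in the Smad7-/- libraries, against 64.5, 48.1 and 79.5 CPM in the wild-type libraries. Here too the groups did not overlap, and wild-type library 2 was the lowest, as it was for Frzb. The difference was 1.55-fold, with a 95% interval from 1.21 to 1.99 (log2 0.63 ± 0.16 SE, unadjusted p = 0.00321, edgeR adjusted p = 0.632). DESeq2 on all symbols gave an adjusted p of 0.0434, and over the 17 alternatives it ran from 0.0434 to 1.00.

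Sfrp2, a close relative of Sfrp1 and Sfrp5, lies on chromosome 3 at 83766321 to 83774316 (plus strand). It had 71.8, 95.9 and 115 CPM in Smad7-/-, against 47.5, 50.5 and 84.3 CPM in wild type. Wild-type library 3 was above Smad7-/- library 1, so the groups overlapped, although the fold of 1.55 was like that of Sfrp1. Its interval was wider, from 1.04 to 2.32 (log2 0.63 ± 0.25 SE, unadjusted p = 0.0360, edgeR adjusted p = 0.900). DESeq2 did not call it either (adjusted p = 0.276).

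Sfrp5 lies on chromosome 19 at 42197971 to 42202252 (minus strand). It had 15.01, 13.7 and 12.05 CPM in Smad7-/-, against 11.003, 17.5 and 12.6 CPM in wild type. The Smad7-/- libraries all lay within the wild-type range (log2 -0.02 ± 0.18 SE, edgeR adjusted p = 1.00), and the 95% interval of the fold, 0.749 to 1.31, leaves room for moderate change either way.

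Sfrp4, known in bone from human SFRP4 mutations that thin cortical bone, lies on chromosome 13 at 19623104 to 19632994 (plus strand). It had 11.6, 39.1 and 52.5 CPM in Smad7-/-, against 21.8, 77.2 and 46.8 CPM in wild type. The 3 libraries of the second set held the 3 highest values and those of the first set the 3 lowest, whatever the genotype. Dspp was likewise lowest in the first set, at 1565 and 2256 CPM in its Smad7-/- libraries and 1618 CPM in its wild-type library, and what part this plays was not tested. The interval of the Sfrp4 fold ran from 0.197 to 2.56 (log2 -0.49 ± 0.72 SE, edgeR adjusted p = 0.999). Without wild-type library 2 the log2 difference was 0.010.

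**Figure D2:**
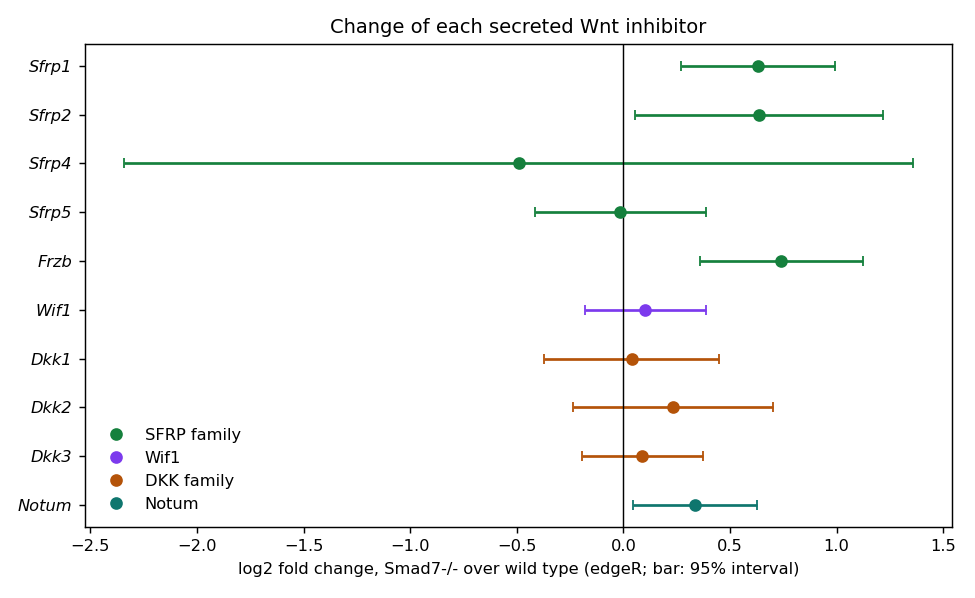
Log2 fold change of each inhibitor, Smad7-/- over wild type, from edgeR over all 6 libraries, with its 95% interval; colours give the family. The intervals of Frzb, Sfrp1, Sfrp2 and Notum lie above 0 before adjustment for the number of genes tested, and that of Sfrp4 is the widest.

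Wif1 was the most abundant of the 10. The gene lies on chromosome 10 at 121033960 to 121100650 (plus strand). It had 425, 487 and 467 CPM in Smad7-/-, against 365, 409 and 510 CPM in wild type. The Smad7-/- values lay inside the wild-type range (log2 0.10 ± 0.13 SE, edgeR adjusted p = 0.999), and the 95% interval of the fold was 0.883 to 1.31.

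None of the 3 DKK genes was under an unadjusted p of 0.05. Dkk1 (chromosome 19, 30545863 to 30549665, minus strand) had 66.1, 91.9 and 97.6 CPM in Smad7-/-, against 64.7, 85.4 and 98.8 CPM in wild type. In both groups library 1 was the lowest, and the means differed little (log2 0.04 ± 0.18 SE, edgeR adjusted p = 1.00). Dkk3 (chromosome 7, 112116017 to 112159057, minus strand) had 165, 172 and 133 CPM in Smad7-/-, against 136, 135 and 170.5 CPM in wild type. The groups overlapped here as well (log2 0.09 ± 0.13 SE, edgeR adjusted p = 0.999). Dkk2 (chromosome 3, 132085292 to 132180304, plus strand) had 17.4, 20.2 and 21.6 CPM in Smad7-/-, against 15.4, 12.3 and 22.8 CPM in wild type. Wild-type library 3 was the highest of all 6 for Dkk2 (log2 0.23 ± 0.21 SE, edgeR adjusted p = 0.999). The 95% intervals of the fold were 0.773 to 1.37 for Dkk1, 0.875 to 1.29 for Dkk3 and 0.850 to 1.62 for Dkk2. Dkk4, a further DKK gene, had 0 counts in every library but wild-type library 1, which had 6, and it was not tested.

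Notum, itself a target of beta-catenin signalling, lies on chromosome 11 at 120653788 to 120661175 (minus strand). It had 83.5, 71.5 and 68.5 CPM in Smad7-/-, against 66.5, 48.3 and 62.1 CPM in wild type. The groups did not overlap, but Smad7-/- library 3 and wild-type library 1 differed by only a few CPM. The fold was 1.26, with a 95% interval from 1.03 to 1.54 (log2 0.34 ± 0.13 SE, unadjusted p = 0.0273, edgeR adjusted p = 0.873). Its exons share 708 bases with Notumos and 210 with Myadml2os on the other strand, and those of Sfrp2 share 347 bases with Gm26771. The library kit does not record the strand, so reads of these partners cannot be told apart from those of Notum and Sfrp2.

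Frzb, Sfrp1 and Notum were thus 3 of 10 inhibitors whose groups did not overlap, all higher in Smad7-/-. Of all tested genes 4.97% did so in the higher direction and 8.88% in either, a contrast that again carries no test because the 10 were not chosen blind. The median log2 fold change of the 10 was 0.17, with 8 above 0, where the median of all tested genes was 0.00 (negative before rounding) and 49.1% lay above 0. Within the first set of libraries the log2 differences, Smad7-/- minus wild type, were 0.67 for Frzb, 0.57 for Sfrp1, 0.80 for Sfrp2 and 0.22 for Notum. Within the second set they were 0.90, 0.78, 0.82 and 0.32 in the same gene order. For Frzb, Sfrp1 and Notum a difference above 0 in both sets was fixed in advance, because their groups did not overlap. The differences of Dkk3 and Sfrp5 changed sign, at 0.31 and 0.38 in the first set and -0.20 and -0.30 in the second. Each set has a single library of 1 genotype, so these values carry no test.

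Cell-type markers moved in the same libraries. Of 12 dental mesenchyme markers 10 were above 0, with a median log2 of 0.40 and a summed level of 918 to 991 CPM in Smad7-/- and 807 to 907 CPM in wild type. Its most abundant members were Msx2 and Dlx2, homeobox genes of the early tooth, at -0.01 ± 0.09 and -0.09 ± 0.14, while the mesenchymal homeobox gene Prrx1, named after its values were seen, stood at 0.57 ± 0.11. Of 8 tested macrophage markers all 8 were above 0 (median 0.60; Csf1r, the receptor for the macrophage growth factor CSF1, at 0.72 ± 0.14 and Mrc1 at 0.54 ± 0.19), with sums of 168 to 181 CPM in Smad7-/- and 96.9 to 134 CPM in wild type. All 8 smooth muscle and pericyte markers were above 0 (median 0.39; 497 to 615 CPM in Smad7-/-, 366 to 461 CPM in wild type), as were all 8 endothelial markers (median 0.20; 336 to 381 CPM in Smad7-/-, 242 to 366 CPM in wild type). Of 10 dental epithelium markers 9 were below 0 (median -0.13; 15456 to 20165 CPM in Smad7-/-, 17888 to 27757 CPM in wild type). Much of that sum was Amelx, at 5999 to 8479 CPM in Smad7-/- and 6347 to 13709 CPM in wild type. The keratin gene Krt5 had 3403 to 4372 CPM in Smad7-/- and 4074 to 4556 CPM in wild type. edgeR called 0 of these markers at an adjusted p under 0.05, with 7 dental mesenchyme, 8 macrophage, 2 smooth muscle and pericyte, 0 endothelial and 1 epithelial under an unadjusted 0.05, where 5.14% of all tested genes were. DESeq2 on all symbols called 1 dental mesenchyme and 2 macrophage markers, all higher, and 0 in the other 3 lists, where it called 0.262% of all genes higher. Their part in the differences of Frzb, Sfrp1, Sfrp2 and Notum was not tested, and in bulk tissue more cells of a type and more RNA per cell cannot be told apart.

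Other tissues were at lower levels or did not follow this order. Bone and odontoblast markers (6 of 9 above 0, median 0.03) summed to 3106 to 4277 CPM in Smad7-/- and 3012 to 5357 CPM in wild type. Cartilage markers (5 of 7 tested above 0, median 0.05) summed to 359.8 to 399 CPM in Smad7-/- and 368 to 413 CPM in wild type, with Matn1 at 0 in every library. Schwann cell and neuron markers (3 of 8 above 0, median -0.06) summed to 378 to 458 CPM in Smad7-/- and 410.3 to 479 CPM in wild type. Skeletal muscle markers (6 of 7 tested below 0, median -0.82, 2 lower under an unadjusted p of 0.05) summed to 6.39 to 8.44 CPM in Smad7-/- and 8.51 to 10.5 CPM in wild type, and red blood cell markers (3 of 3 tested below 0 and without overlap, median -1.47, 2 lower under that p) to 16.8 to 28.7 CPM in Smad7-/- and 35.4 to 50.7 CPM in wild type. Of all 15284 tested genes, 287 were lower under that p and 598 were lower without overlap.

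**Figure D3:**
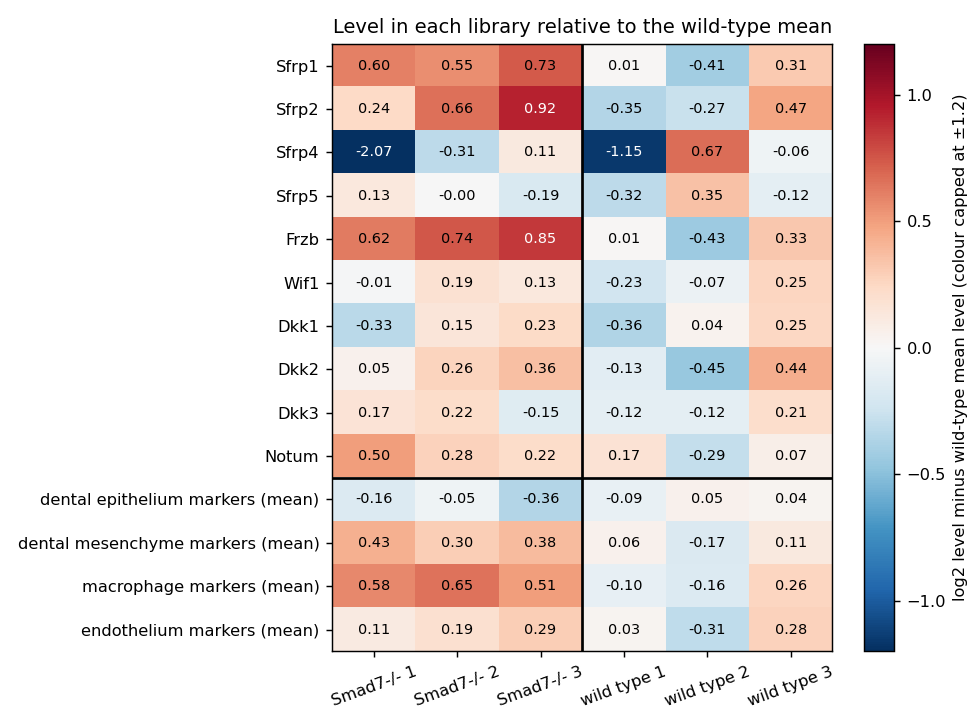
Level in each library minus the wild-type mean level, in log2 units, for the 10 inhibitors and for the mean of 4 lists of cell-type markers; red is above and blue below the wild-type mean. Marker rows average log2 levels over genes, while gene rows are log2 of CPM over the mean wild-type CPM. Frzb and Sfrp1 are above 0.5 in each Smad7-/- library. In the Smad7-/- libraries the macrophage markers lie between 0.51 and 0.65 and the dental mesenchyme markers between 0.30 and 0.43. The endothelial markers lie between 0.11 and 0.29 there, and the epithelial markers between -0.36 and -0.05. Sfrp4 is lowest in library 1 of each group.

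Levels of different genes were set against each other per length, as TPM (counts divided by merged exon length and scaled to the same sum in each library). Wif1 stood far above the rest, at 704 ± 52.1 TPM in Smad7-/- and 648 ± 116 TPM in wild type (SD, n = 3). Dkk3 followed with 172 ± 15.53 TPM in Smad7-/- and 161 ± 21.9 TPM in wild type. Dkk1 had 131 ± 28.3 TPM in Smad7-/- and 126 ± 27.3 TPM in wild type, and Sfrp2 had 163 ± 43.3 TPM in Smad7-/- and 104 ± 34.7 TPM in wild type. These 2 changed places between the genotypes, but their ranges overlapped in both. With the longest transcript as the length, Sfrp2 averaged 131 TPM and Dkk3 129 TPM in Smad7-/-, which turned the order of those genes there.

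Further down, Notum had 115 ± 12.1 TPM in Smad7-/- and 89.6 ± 12.5 TPM in wild type. Sfrp1 had 84.5 ± 9.72 TPM in Smad7-/- and 53.6 ± 12.6 TPM in wild type, and Frzb had 75.8 ± 8.89 TPM in Smad7-/- and 44.6 ± 10.98 TPM in wild type. At the low end Sfrp4 had 30.9 ± 19.5 TPM in Smad7-/- and 43.1 ± 25.4 TPM in wild type. Sfrp5 had 26.5 ± 2.41 TPM in Smad7-/- and 26.6 ± 7.21 TPM in wild type, and Dkk2 had 19.8 ± 2.74 TPM in Smad7-/- and 16.6 ± 5.23 TPM in wild type. In both groups the ranges of neighbours in this order were separate between Wif1 and the next gene and between Notum and Sfrp1. In Smad7-/- they were also separate between Frzb and Sfrp4 and between Sfrp5 and Dkk2, and the other neighbours overlapped.

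**Figure D4:**
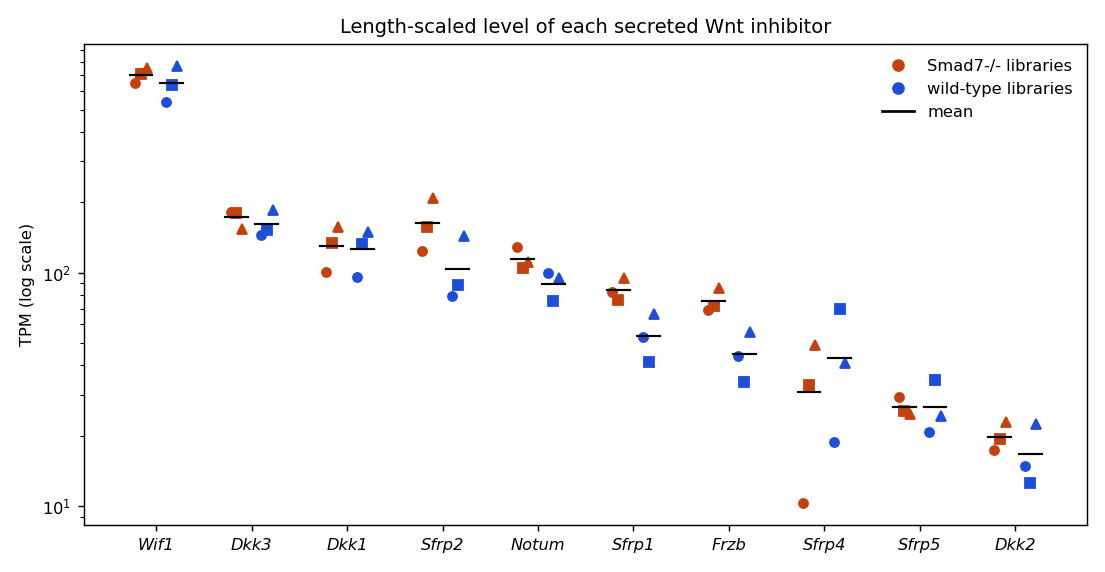
Length-scaled level of each inhibitor in TPM, on a log axis, in the Smad7-/- and wild-type libraries, ordered by the wild-type mean. Wif1 lies between 539.6 and 769.6 TPM in every library, and the lowest gene, Dkk2, between 12.5 and 22.8 TPM.

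As a share of the summed TPM of all 10, the SFRP genes held 22.6%, 24.1% and 27.9% in the Smad7-/- libraries, against 19.4%, 21.02% and 21.3% in the wild-type libraries. Wif1 held 46.6%, 46.9% and 45.3% in Smad7-/-, against 48.6%, 49.8% and 49.6% in wild type. The DKK genes held 21.6%, 22.1% and 20.1% in Smad7-/-, against 23.001%, 23.3% and 23.02% in wild type. Notum held 9.22%, 6.94% and 6.69% in Smad7-/-, against 8.93%, 5.92% and 6.08% in wild type. The ranges of the genotypes were apart for the SFRP share, which was higher in Smad7-/-, and for the Wif1 and DKK shares, which were lower, and they overlapped for Notum. The levels of Wif1 and the DKK genes were not lower on average. Wif1 averaged 704 TPM in Smad7-/- and 648 TPM in wild type. The DKK genes together averaged 323 ± 19.6 TPM in Smad7-/- and 303 ± 51.3 TPM in wild type. These shares sum over the chosen genes and depend on each other, so they are given without a test.

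The genes whose levels followed an inhibitor most closely were sought for the 3 inhibitors with the highest CPM, among 11232 genes of at least 5 CPM and over the same 6 libraries. For Wif1 they were Serpinf1, which encodes the secreted protein PEDF, Col1a2, a chain of type I collagen, and Sh3kbp1, an adaptor gene, with Pearson r of 0.990, 0.990 and 0.986. Col1a2 had 7480, 9148 and 8679 CPM in Smad7-/- and 6012, 7528 and 10221 CPM in wild type, and like Wif1 it was lowest in wild-type library 1 and highest in wild-type library 3. For Dkk1 they were Praf2, Tgfb3, a TGF-beta ligand, and 1810055G02Rik, with r of 0.995, 0.990 and 0.990. For Dkk3 they were Pnrc1, Ifi35 and Nudc, with r of 0.988, 0.985 and 0.984. These are the extremes of many comparisons over few libraries, and 1% of the genes compared had an r above 0.886 with Wif1, 0.915 with Dkk1 and 0.858 with Dkk3.

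Among the other Wnt pathway genes, edgeR called 1, the beta-catenin target Ccnd1, which encodes a cyclin that moves cells into the division cycle and has many other regulators. It fell to 9.503, 11.5 and 8.73 CPM in Smad7-/-, against 22.1, 21.7 and 20.3 CPM in wild type (log2 -1.11 ± 0.14 SE, edgeR adjusted p = 0.0339). Leaving out any single library ended that call (log2 -1.23 to -1.03, adjusted p = 0.0809 to 0.268), as did sex as a term (adjusted p = 0.115) and a minimum of 5 CPM (0.0604).

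Of the 14 beta-catenin targets tested, Ccnd1 included, 9 lay above 0 and the median was 0.14, with 4 higher and 1 lower under an unadjusted p of 0.05. Over all tested genes 49.1% lay above 0 and 5.14% were under that p. Tcf7, which encodes a TCF/LEF factor, had 107, 93.1 and 86.9 CPM in Smad7-/- and 82.4, 56.7 and 66.6 CPM in wild type (log2 0.48 ± 0.14 SE, edgeR adjusted p = 0.696). Its groups did not overlap. The abundant targets Tnfrsf19, a receptor gene, and Cd44, an adhesion receptor gene, stood at 0.00 ± 0.12 (negative before rounding) and 0.00 ± 0.10. Apcdd1, which encodes a membrane-bound Wnt inhibitor, stood at 0.14 ± 0.14.

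Of 11 tested extracellular modulators outside the 10, edgeR called 0, with 4 under an unadjusted p of 0.05 (3 higher, 1 lower), where 5.14% of all tested genes were, and DESeq2 called 1, where it called 0.351% of all genes. That gene, Trabd2b, was named after its values were seen, and it encodes a membrane protease that cuts Wnt ligands. It had 21.7, 27.3 and 27.6 CPM in Smad7-/-, against 18.4, 15.3 and 15.04 CPM in wild type (edgeR log2 0.65 ± 0.14 SE, adjusted p = 0.521; DESeq2 on all symbols adjusted p = 0.00959). The groups were apart, as for Frzb and Sfrp1. The 4 most abundant modulators were Igfbp4 at 0.47 ± 0.12, Sostdc1, a secreted inhibitor of Wnt and BMP signalling that limits tooth number, at 0.13 ± 0.13, Apcdd1 and Tpbg at -0.01 ± 0.09. Igfbp4, an IGF-binding protein that can also bind Frizzled and LRP6, had 507, 601 and 515 CPM in Smad7-/- and 412, 331 and 425 CPM in wild type, again without overlap (edgeR adjusted p = 0.608). The 3 higher under an unadjusted p of 0.05 were Trabd2b, Igfbp4 and Rspo3. Rspo3, also named after its values were seen, is an R-spondin gene and not an inhibitor. It averaged only 0.919 CPM in Smad7-/- and 0.317 CPM in wild type (edgeR log2 1.52 ± 0.44 SE, adjusted p = 0.696).

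Wnt ligands are what the SFRP proteins, WIF1 and NOTUM act on. Of 15 tested Wnt ligand genes edgeR called 0 and DESeq2 called 0, with 1 under an unadjusted p of 0.05, which was lower. Of these ligand genes 9 lay below 0 and the median was -0.14. Over all 15284 tested genes 5.14% were under that p and 7786 lay below 0. The most abundant were Wnt6 at -0.14 ± 0.11, Wnt5a at 0.08 ± 0.11, Wnt10a, a gene mutated in human tooth agenesis, at -0.20 ± 0.10 and Wnt4 at 0.29 ± 0.25. Wnt4 was at 0.02 without Smad7-/- library 1, at 0.51 without Smad7-/- library 3 and at 0.05 with the 2 sets of libraries as a term. Of 22 receptor and co-receptor genes edgeR called 0 and DESeq2 called 0, and the median was 0.03. Under an unadjusted p of 0.05 there were 2 (1 higher, 1 lower), where 5.14% of all tested genes were. Among the most abundant, Ptk7 stood at -0.11 ± 0.09, Fzd3 at -0.17 ± 0.11, Ryk at 0.03 ± 0.11 and Kremen1, the partner through which DKK1 removes LRP6 from the surface, at -0.08 ± 0.09.

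**Figure D5:**
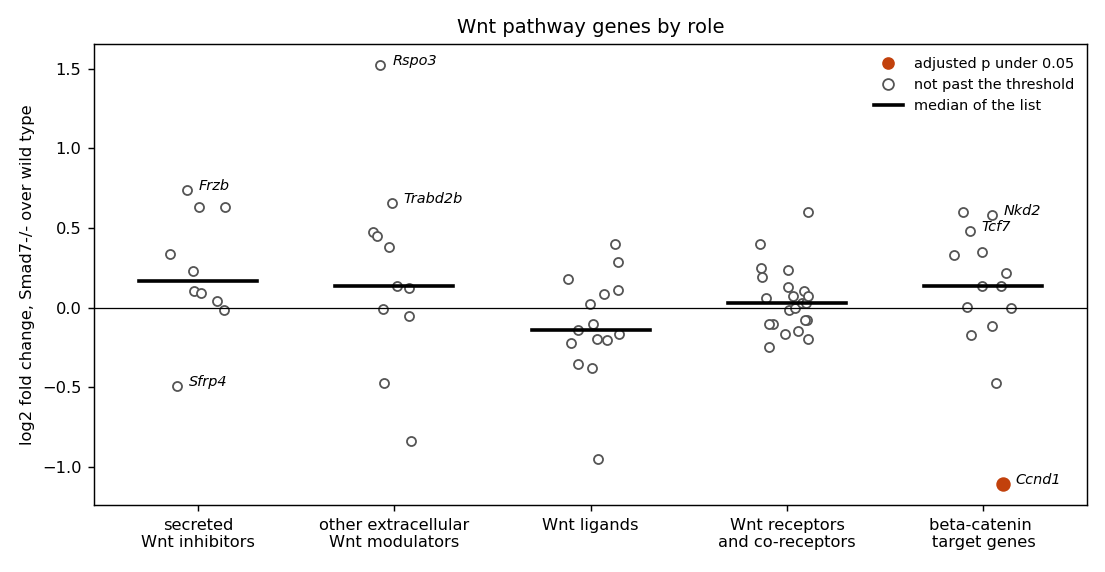
Log2 fold change, Smad7-/- over wild type, of each tested gene in the secreted Wnt inhibitors and 4 other Wnt lists; bars are list medians and the filled point passed the edgeR test. The medians are 0.17, 0.14, -0.14, 0.03 and 0.14 from left to right, and only Ccnd1 is filled.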

How the data were processed

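RNA of 3 Smad7-/- and 3 wild-type tooth germ libraries was made with a TruSeq RNA kit, per the labels' protocols. The files as deposited give unnormalized read counts for each symbol; HISAT2, featureCounts, DESeq2 and the mm10 build are named in the submitters' processing notes, without versions. The members and gene lists were chosen with earlier results of these data known.

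Counts were tested with edgeR 4.0.16 in R 4.3.3 (quasi-likelihood F-test, robust, TMM scaling, filterByExpr with minimum count 10 and minimum total 15), with no covariate and adjustment over 15284 genes. Alternatives were DESeq2 1.42.0, limma-voom (limma 3.58.1), other scaling, filters and terms, and leaving out each library. CPM used TMM library sizes. TPM used GENCODE M21 merged exons, matched to 98.3% of symbols. Named genes were all 10 members, Smad7, the 4 most abundant and any called members of each Wnt list, the 2 most abundant genes of a marker list (given for the lists whose levels bear on a result), and the 3 closest genes of the 3 most abundant members. Intervals cover the spread between libraries only. The edgeR, DESeq2 and limma steps were tested on simulated data. Figures used matplotlib 3.10.9.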

Additional observations from a re-analysis of the deposited data

How the results depend on the processing

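The log2 differences of Frzb, Sfrp1, Sfrp2, Notum, Dkk2 and Dkk3 stayed above 0 under all 17 alternatives. They ran from 0.57 to 0.94 for Frzb, 0.46 to 0.82 for Sfrp1, 0.46 to 0.95 for Sfrp2, 0.21 to 0.43 for Notum, 0.051 to 0.52 for Dkk2 and 0.017 to 0.21 for Dkk3. Both ends of each of these ranges come from leaving out 1 library. All alternatives refit the same libraries. For Frzb, Sfrp1 and Notum, whose groups did not overlap, leaving out 1 library could hardly have changed the sign. DESeq2 called Frzb (0.74) and Sfrp1 (0.63) with either filter, so 2 inhibitors, 1 other modulator (Trabd2b, 0.65) and 59 genes in all (56 on the filtered genes) against 0, 0 and 4 by edgeR. A minimum of 5 CPM left 2 genes and no beta-catenin target (0), as did sex as a term for the targets (0). Leaving out single libraries gave 1 to 6 genes, with 0 beta-catenin targets each time. Smad7 ran from -4.21 to -3.46 in the same way and was past the threshold each time except without Smad7-/- library 2 (-3.83). Small differences changed sign without 1 library: Sfrp4 ran from -0.93 to 0.010, Sfrp5 ran from -0.16 to 0.20, Wif1 -0.0042 to 0.25, Dkk1 -0.12 to 0.19, Sostdc1 -0.0033 to 0.24, Apcdd1 -0.041 to 0.26, Tpbg -0.052 to 0.025, Ryk -0.034 to 0.13, Tnfrsf19 -0.097 to 0.10 and Cd44 -0.059 to 0.079. With the first and second sets as a term, Sfrp5 was at 0.026, Ryk at -0.052 and Cd44 at -0.054. Tnfrsf19 was at 0.0028 with library totals and 0.0010 with sex as a term, where Cd44 was at -8e-04. The cause of these shifts was not tested. Same-numbered libraries deviated together only weakly over all tested genes (correlations 0.169, -0.0339 and 0.0927), which does not settle whether the numbers pair them. With the replicate block the SE of Sfrp2 fell from 0.25 to 0.107 and that of Dkk1 from 0.18 to 0.083, while that of Dkk3 rose from 0.13 to 0.14. The block gave 4 called genes and 0 inhibitors (Frzb 0.77, edgeR adjusted p = 0.194, and Sfrp2 0.66, edgeR adjusted p = 0.166). Sfrp5 was at 0.0054 there and Cd44 at -9e-04. With the longest transcript as the length, Wif1 kept its share of the summed TPM (47.8% with merged exons) within the spread between libraries, but Sfrp2 moved above Dkk3 in Smad7-/-. The count of inhibitors under an unadjusted p of 0.05 was 2 to 5 when 1 library was left out, 3 with no filter and 4 in the other fits.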
